A study of Mus musculus with 3 samples.

Results

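Neuropeptide precursors and granins, the proteins that neurons and some glia package into dense-core vesicles, were followed across the cell clusters of the mouse olfactory bulb. The set was a list of 36 genes, taken by symbol from the raw count matrices among 31055 genes counted. It holds 30 peptide precursors and the granin-family genes Chga, Chgb, Scg2, Scg3, Scg5 and Vgf. All 36 symbols had 1 row each in every matrix.

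Nuclei came from the olfactory bulbs of 3 adult male C57Bl/6 mice. Each had received rAAVretro-CAG-H2B-GFP, a virus taken up by axon endings that labels nuclei green under a ubiquitous promoter, in the anterior olfactory nucleus and the piriform cortex. GFP-positive, DRAQ5-positive nuclei were sorted and sequenced as 1 library per mouse, so that there was a single group without an untreated arm and the labelling depended on where the virus spread. The comparisons were therefore made between the authors' clusters and subclusters within the same 3 mice. They retained 5845, 21105 and 4753 nuclei in mice 1, 2 and 3, with medians of 7940, 8420 and 10568 UMIs (unique molecular identifiers, 1 for each counted molecule). Mouse 1 had 39 nucleus barcodes in common with mouse 2 and 8 with mouse 3, and the latter pair had 35 in common.

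The deposited table numbers the clusters without naming them, and names were assigned here from marker genes. Clusters 2, 4, 5, 13 and 14 carried markers of projection neurons, the mitral and tufted cells that send axons to the cortex. Clusters 0, 1, 3, 7, 8, 10, 12, 15 and 17 carried markers of inhibitory neurons (Gad1, Slc32a1 and Dlx1). Of these, clusters 0, 1, 7, 8, 10 and 12 also carried Dcx, Sox11 and Sox4, genes of immature neurons, and cluster 7 carried all 5 such markers. Cluster 6 carried all 5 markers of dopaminergic periglomerular neurons, cluster 9 all 6 of astrocytes, cluster 11 all 6 of olfactory ensheathing glia, and clusters 16, 18, 19 and 20 those of oligodendrocytes, vascular cells, oligodendrocyte precursors and microglia. Inhibitory markers were also carried by cluster 9 (5 of 7), cluster 20 (4) and clusters 11 and 18 (3 each), and cluster 20 carried 3 of 8 projection markers. The part of such RNA in the levels of these clusters was not tested. Cluster 21 carried all 7 inhibitory markers but was left unnamed for its low depth (median 2240 UMIs), and, with 9 nuclei in mouse 1, it was not fitted. Among subclusters of the projection neurons, M1, M2, M3 (mitral) and T1, ET1, ET2, ET4 (tufted) were identified by lists that the study chose on these samples. Subcluster 2, which took 772 of its 943 nuclei from mouse 2, met the naming rule for periglomerular neurons by 3 of 7 markers (Gad1, Slc32a1 and Meis2) and is called here by its number. Subcluster 8 met no list.

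Neuropeptides are cut from larger precursors by prohormone convertases such as Pcsk1 and Pcsk2, trimmed by carboxypeptidase E (Cpe), often amidated by Pam, and stored in dense-core vesicles whose core the granins help to form. They are released by stronger activity than fast transmitters require and act on G-protein-coupled receptors over wider distances. In the olfactory bulb, peptides mark several classes of interneuron, and cholecystokinin is a known peptide of tufted cells. Because nuclei were sequenced, the values describe nuclear RNA and not peptide.

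The sequence upstream of these genes is shown because cAMP response elements, the letters TGACGTCA, are a textbook feature of peptide and granin genes. RefSeq promoters (GRCm38.p6, 250 bases before the RefSeq start) matched 30 of the 36 genes. The element, searched on both strands, lay in 4 of 30 (13.3%), against 1.77% of 27025 genes. The windows of 30 bases that hold it are printed 5′ to 3′ on the gene's strand, with the element in capitals. They lie at chr1:79440076-79440105 (minus strand), chr2:132781559-132781588 (plus), chr13:99900777-99900806 (minus) and chr16:23890874-23890903 (minus), with the first capital 68, 72, 112 and 48 bases before the RefSeq start. By the GENCODE positions used for the genes, all 4 windows lie inside the annotated gene, so they are upstream only of the RefSeq starts.
Scg2: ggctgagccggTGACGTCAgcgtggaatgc
Chgb: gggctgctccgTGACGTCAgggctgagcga
Cartpt: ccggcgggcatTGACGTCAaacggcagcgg
Sst: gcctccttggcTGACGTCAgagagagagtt

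The letters TATAAA, a form of the TATA box, lay on either strand in 8 of 30 genes (26.7%), against 14.3% of all genes. The promoter of Vip, the member with the largest log2 fold change in any cluster (below), held them at 3 places, which begin 157, 147 and 30 bases before the start. Its 250 bases, at chr10:5638968-5639217 on the plus strand, carry the matches in capitals.
Vip: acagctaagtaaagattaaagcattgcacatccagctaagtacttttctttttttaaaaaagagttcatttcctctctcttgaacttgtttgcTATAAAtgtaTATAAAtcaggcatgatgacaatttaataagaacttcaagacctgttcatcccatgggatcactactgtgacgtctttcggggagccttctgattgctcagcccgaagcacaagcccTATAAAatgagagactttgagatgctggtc
A match of letters describes these windows and does not show a site in use.

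UMI counts were summed per mouse and cluster and are given as CPM, counts per 1000000 UMIs of the summed library. Differences were tested with edgeR's quasi-likelihood test across all genes, with Benjamini-Hochberg adjusted p-values. Each cluster was compared with the mean of the other clusters on the log2 scale, and a gene was called at an adjusted p under 0.05 and a log2 fold change above 1. The clusters had been formed on the same counts, so these p-values describe differences between clusters. They rest on the spread between libraries of the same 3 mice within clusters, pooled over clusters. The main fit treats the libraries of a mouse as independent, which can make the p-values too small or too large, and the mouse as a block is an alternative. Of 36 members, 29 passed the filter on low counts in the fit of 21 clusters, 25 in that of 9 subclusters and 31 in that of projection against inhibitory neurons. Among the 29, 28 differed between clusters (86.0% of 16622 genes did), and the exception was Pomc, the precursor of melanocortins and beta-endorphin (adjusted p = 0.598). Of 609 pairs of member and cluster, 79 were called higher, or 27 members in at least 1 cluster. The background was 9.28% of all pairs of gene and cluster, and 61.7% of genes were higher in at least 1.

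The members were unevenly spread over the clusters, and the share of all genes called in the same cluster follows each count. Among projection clusters, 8 of 29 members were called in cluster 4 (9.84% of genes), 5 in cluster 2 (12.8%), 4 in cluster 5 (13.3%), 4 in cluster 14 (8.66%) and 3 in cluster 13 (12.2%). Among inhibitory clusters, 6 were called in cluster 7 (5.55%), 5 in cluster 10 (5.69%), 4 each in clusters 3 (7.01%), 8 (6.85%) and 12 (5.76%), and 3 each in clusters 0 (7.27%), 1 (7.83%) and 17 (7.96%). Without mouse 2 the count was 5 in cluster 13 (with Calca and Scg2), 3 in cluster 10 (without Calca and Tac2) and 2 in cluster 12. In non-neuronal clusters the counts were 3 in olfactory ensheathing glia (15.4%), 2 in astrocytes (13.8%), 1 in vascular cells (13.6%), and 0 in oligodendrocytes (9.69%), their precursors (9.65%) and microglia (9.39%), by edgeR. In those 3 clusters DESeq2 also called 0, and at an unadjusted p under 0.05 with the same fold limit 1, 0 and 0 members were higher. Without mouse 2, Tac2 was called in oligodendrocytes (adjusted p = 0.0189) and Tac1 in their precursors (0.0379). In astrocytes the count was 4 with the mouse as a block in the model, which added Vip (log2 fold change 1.10, adjusted p = 0.00369) and Sst (1.19, 0.0336). Vip was 53.6, 31.6 and 1.51 CPM there, and in microglia 97.5, 26.7 and 0 CPM.

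**Figure D1:**
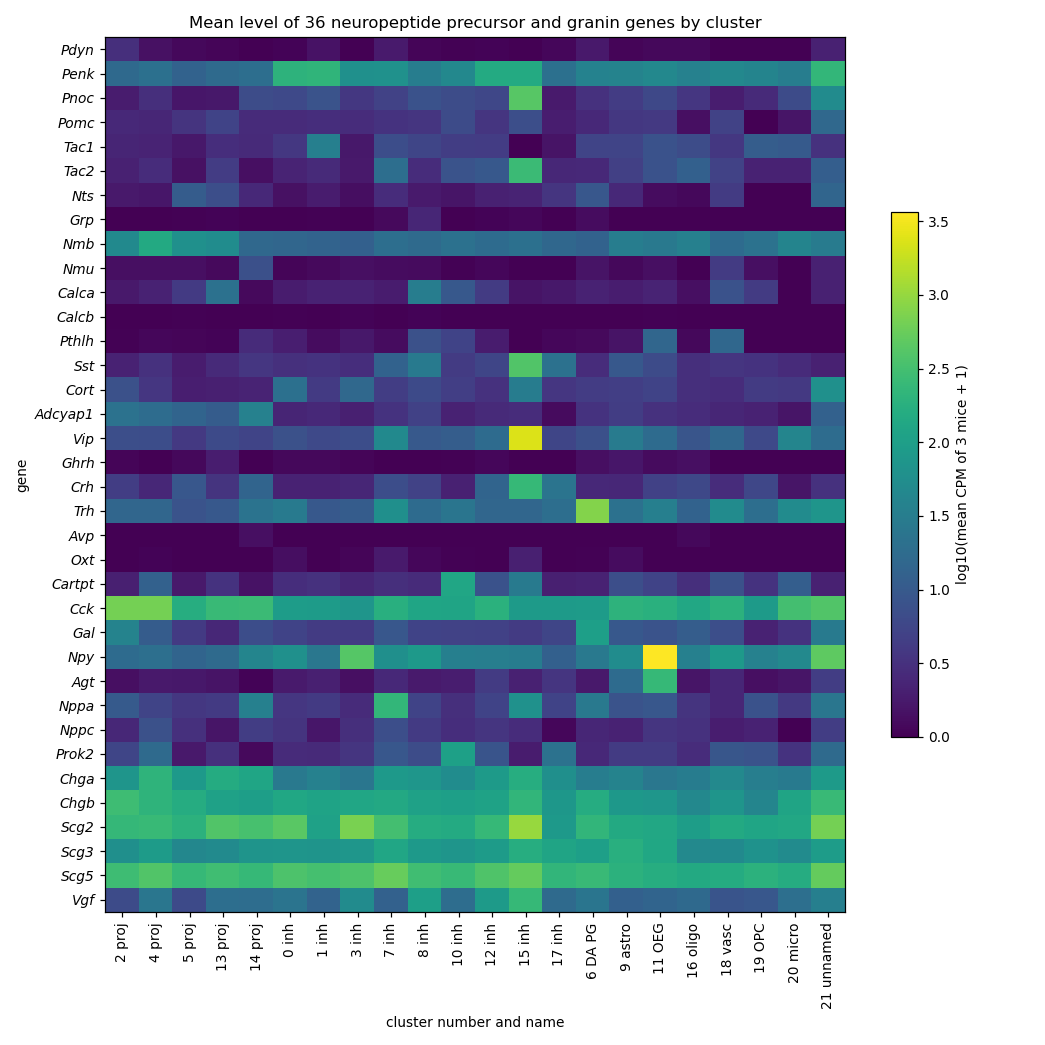
Heatmap of the members (rows) by cluster (columns, ordered as projection neurons, inhibitory neurons and other cells), with colour giving log10 of the mean CPM of 3 mice plus 1. Vip, Pnoc, Tac2, Sst and Crh stand out in cluster 15, Trh and Gal in cluster 6, Npy and Agt in cluster 11, and the granins spread over most columns.

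Cluster 15, an inhibitory cluster of 301 nuclei, held the highest level of the largest number of peptides. In it, 13 of the 29 members were called higher (6.37% of all genes were), namely Penk, Pnoc, Tac2, Sst, Cort, Vip, Crh, Cartpt, Nppa, Chga, Scg2, Scg3 and Vgf. The median log2 fold change of the members there was 0.95, against -0.07 over all genes. Under the alternative settings the count ran from 12 to 15. The call of Penk ended without mouse 1 (log2 fold change 0.76, adjusted p = 0.526). That of Scg3 (1.03) fell just under the fold limit with DESeq2 and without the 5% of nuclei with most UMIs (0.99).

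Vip encodes vasoactive intestinal peptide, a classic peptide of bulb interneurons, and lies on chromosome 10 (5639218 to 5647617, plus strand, GRCm38). Its level in cluster 15 was 3255, 1924 and 1862 CPM in mice 1, 2 and 3. No other cluster came near in any mouse, and the next was inhibitory cluster 7 with 40.7, 76.0 and 26.5 CPM. The log2 fold change in cluster 15 was 7.78 (SE 0.247, adjusted p = 2.87e-33), and that in cluster 7 was 1.98 (SE 0.404, adjusted p = 1.47e-04). The mean in cluster 7 was near that of microglia, at 41.4 ± 50.4 CPM. Of the nuclei of cluster 15, 98.0% had a Vip UMI (exact 95% interval 95.7 to 99.3%). In microglia, which should lack the gene, 10.96% had one (6.40 to 17.2%), at medians of 8471 and 3405 UMIs. With every nucleus thinned to 1500 UMIs, the shares were 79.4% and 4.79%.

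Pnoc, the nociceptin precursor, reached 616, 345 and 337 CPM in cluster 15, where its log2 fold change was 7.17 (SE 0.211, adjusted p = 7.80e-35). All 3 mice were far above the second cluster of the order, inhibitory cluster 1, at 9.53, 5.67 and 6.05 CPM. That call, at a log2 fold change of 1.12, was lost without mouse 1 (adjusted p = 0.145), and in microglia the gene had 1 UMI. A Pnoc UMI was found in 76.1% of nuclei of cluster 15 and in 0.685% of microglia.

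Somatostatin (Sst), an inhibitory peptide of many interneurons, had 652, 281 and 240 CPM in cluster 15, with mouse 1 highest (log2 fold change 6.53, SE 0.323, adjusted p = 2.41e-24). In inhibitory cluster 8 it ranged from 60.1 CPM in mouse 1 through 23.6 in mouse 2 to 1.14 in mouse 3. The mice did not overlap with those of cluster 15 there, and that call ended without mouse 1 (log2 fold change 1.56, adjusted p = 0.154). Tac2, which encodes neurokinin B, reached 334, 252 and 217 CPM in cluster 15 (log2 fold change 6.69, SE 0.272, adjusted p = 3.87e-28) and averaged 18.5 ± 12.3 CPM (SD, n = 3 mice) in cluster 7. Crh, corticotropin-releasing hormone, had 362, 162 and 214 CPM in cluster 15 (log2 fold change 6.13, SE 0.261, adjusted p = 2.69e-27). Its lesser calls varied between mice. In inhibitory cluster 17 it was 0, 12.9 and 55.4 CPM, and the calls in clusters 12 and 14 ended without mouse 3 (adjusted p = 0.172 and 0.434), while the log2 fold change in cluster 5 was then 0.96. A call of Sst in cluster 17 ended without mouse 1 (adjusted p = 0.313) or mouse 3 (0.0587).

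Detection of these peptides in the same nuclei was counted at a threshold of 5 UMIs, chosen after the values were seen. Of the 301 nuclei, 256 had at least 5 Vip UMIs, 110 had 5 of Pnoc, 57 of Tac2, 48 of Sst, 44 of Crh and 34 of Vgf. Among the 57 nuclei with Tac2, 56 had Vip (98.2%, against 85.0% of all nuclei of the cluster) and 9 had Pnoc (15.8%, against 36.5%). Of the 48 nuclei with Sst, 18.8% had Pnoc. Of the 34 nuclei with Vgf, 30 had Pnoc (88.2%), 1 had Tac2 (2.94%, against 18.9%) and 0 had Sst (against 15.9%). These are counts of nuclei from 3 mice pooled, with no test.

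**Figure D2:**
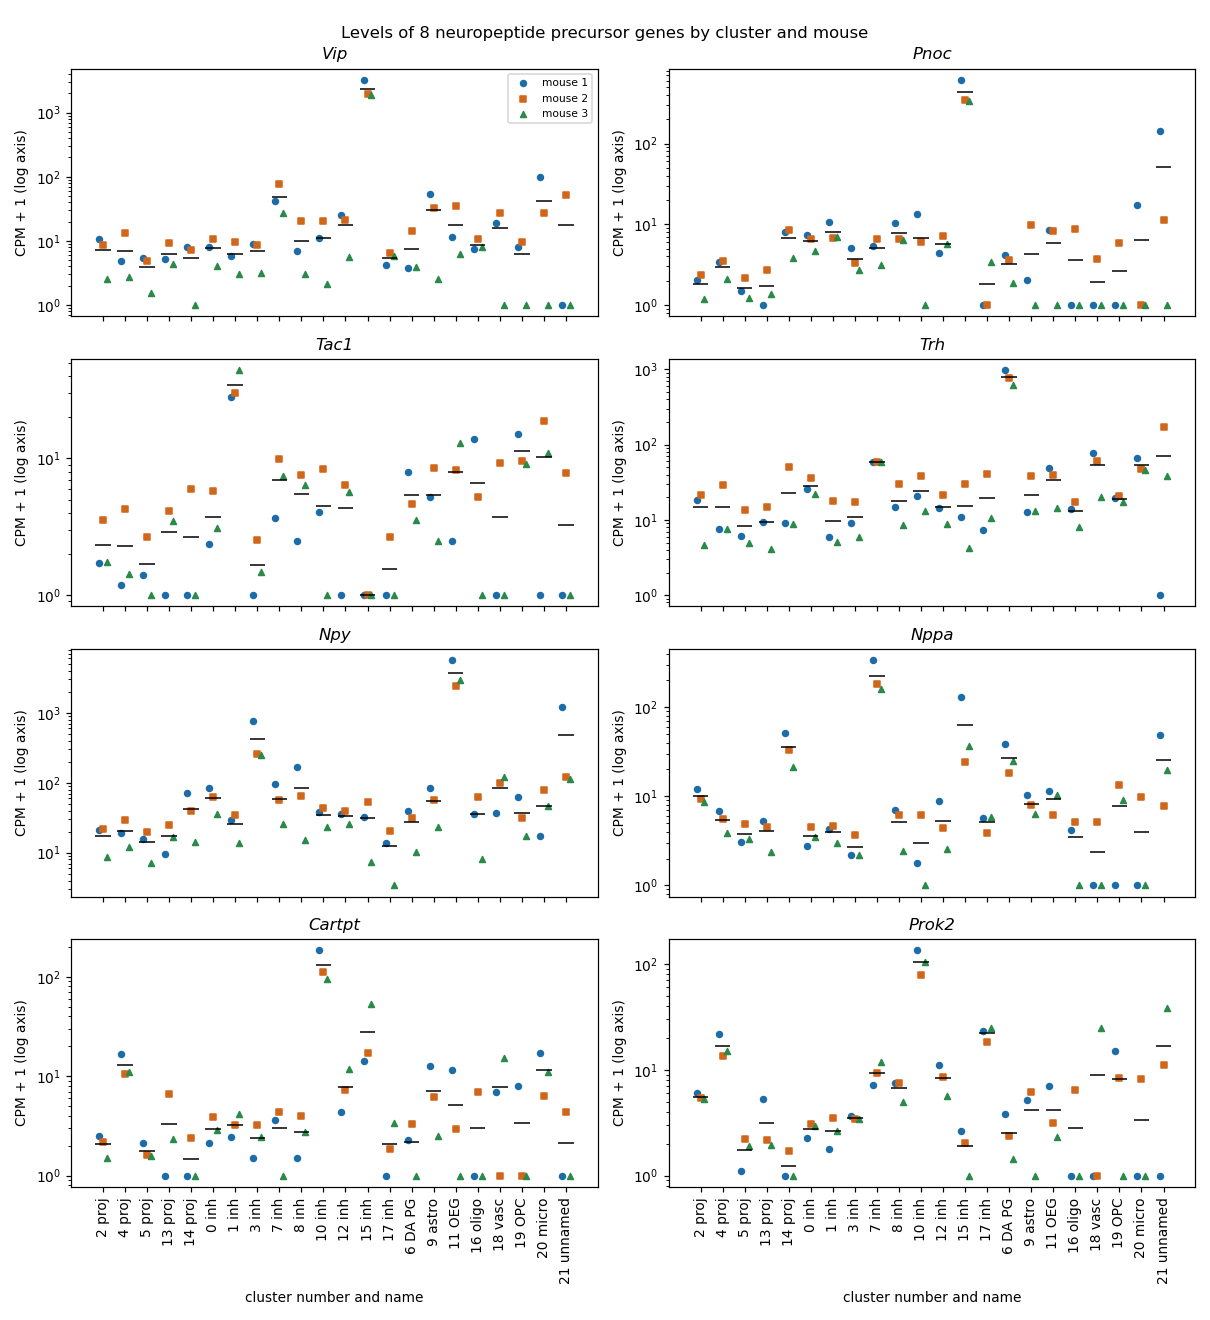
Levels of 8 peptide genes by cluster, on a log axis of CPM plus 1, with 1 point per mouse and a black line at the mean of 3 mice. Each gene has a single cluster whose 3 points lie above those of the others, such as Vip in cluster 15 (1862 to 3255 CPM) and Trh in cluster 6 (614 to 981 CPM).

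Several other inhibitory clusters had the highest level of a peptide. Over all fitted clusters, the 3 mice of the highest cluster lay above every mouse of the rest for 15 of the 29 tested members (19.7% of all genes): Pnoc, Tac1, Tac2, Nmb, Sst, Vip, Crh, Trh, Cartpt, Gal, Npy, Agt, Nppa, Prok2 and Vgf. Trh, the precursor of thyrotropin-releasing hormone (chromosome 6, 92242061 to 92244650, minus strand), was highest in the dopaminergic periglomerular cluster 6, at 981, 757 and 614 CPM. The second cluster, number 7, had 58.4, 58.1 and 58.0 CPM, well below all of these. The log2 fold change in cluster 6 was 5.25 (SE 0.236, adjusted p = 2.85e-26). Microglia had 52.0 ± 11.3 CPM, about the level of cluster 7, whose call (log2 fold change 1.24) ended without mouse 1 (adjusted p = 0.182) or mouse 3 (0.0999). A Trh UMI occurred in 73.1% of nuclei of cluster 6 (median 9566 UMIs) and in 14.4% of microglia.

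Galanin (Gal), a peptide that mostly inhibits its targets, was also highest in cluster 6, with 132, 87.4 and 88.7 CPM (log2 fold change 4.14, SE 0.192, adjusted p = 1.19e-25). It was called in projection cluster 2 as well, at 53.0, 26.2 and 34.9 CPM (log2 fold change 2.86). Neurotensin (Nts) averaged 8.20 ± 5.95 CPM in cluster 6 and 9.76 ± 1.96 CPM in projection cluster 5. Those 2 clusters were the only ones in which Nts was called, and their mice overlapped. In cluster 6, 4 of the 29 members were called in all (6.38% of genes), the fourth being Nppa.

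Nppa, the atrial natriuretic peptide gene (chromosome 4, 148000722 to 148002079, plus strand), was highest in inhibitory cluster 7, with 336, 182 and 160 CPM. The next was cluster 15, at 129, 23.3 and 35.6 CPM, below cluster 7 in all mice. The log2 fold change in cluster 7 was 5.19 (SE 0.198, adjusted p = 2.21e-29), and 38.5% of its nuclei had a UMI (median 4498 UMIs) against 2.05% of microglia. Nppa overlaps Gm13054 on the opposite strand, and Prok2 overlaps Gm26748 in the same way. Whether these overlaps affected the counts was not tested. Nppc, which encodes C-type natriuretic peptide, was low, at 6.24 ± 0.74 CPM in cluster 7 and 6.68 ± 3.82 CPM in projection cluster 4, the clusters in which it was called.

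Inhibitory cluster 10 had the highest level of Cartpt, the CART peptide precursor, with 183, 110 and 93.8 CPM (log2 fold change 5.53, SE 0.247, adjusted p = 2.33e-26). It also had the highest level of Prok2, prokineticin 2, a factor known for guiding new neurons into the bulb, at 133, 76.9 and 103 CPM (log2 fold change 4.99, SE 0.213, adjusted p = 2.77e-27). Neither gene's mice overlapped with those of another cluster. At 2 or more UMIs, a threshold chosen after the values were seen, 183 nuclei of 1047 had Cartpt and 178 had Prok2. Of the nuclei with Cartpt, 14.2% had Prok2, near the 17.0% of all nuclei of the cluster. In cluster 12, Cartpt and Prok2 were not called, and Penk (149 ± 28.7 CPM), Tac2, Crh and Vgf were, of which Tac2 (adjusted p = 0.248) and Crh (0.0711) were not called without mouse 2. Without mouse 3, Prok2 was called there (log2 fold change 1.40, adjusted p = 0.0414).

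Penk, the enkephalin precursor, was spread over the large inhibitory clusters. It had 232, 223 and 178 CPM in cluster 1 (log2 fold change 2.46, SE 0.295, adjusted p = 1.13e-09) and 261, 186 and 152 CPM in cluster 0 (2.36, SE 0.296, adjusted p = 3.10e-09). These 2 clusters overlapped, and the lowest projection cluster, number 5, had 12.03 ± 8.60 CPM. Tac1, the precursor of substance P, was called in cluster 1 alone, at 27.2, 29.0 and 43.3 CPM (log2 fold change 3.69, SE 0.334, adjusted p = 3.76e-13). Without mouse 2 it was also called in clusters 6 (adjusted p = 0.0482), 11 (0.0346) and 19. Cortistatin (Cort), a relative of somatostatin, was called in clusters 15, 0 and 3, with means of 29.99, 19.5 and 15.1 CPM whose mice overlapped.

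Calca, which encodes calcitonin and CGRP, averaged 31.1 ± 19.8 CPM in cluster 8 (48.2, 35.7 and 9.44 CPM). Mouse 3 was lowest, and the log2 fold change was 4.37 (SE 0.406, adjusted p = 7.25e-13). Pthlh, the parathyroid hormone-like peptide, was called in cluster 8 (6.65 ± 2.32 CPM) and in olfactory ensheathing glia (13.996 ± 5.22 CPM), and in cluster 10 except without mouse 1 (adjusted p = 0.0519). In vascular cluster 18 it was 17.9, 1.38 and 23.9 CPM, and that call ended without mouse 3 (adjusted p = 0.0885).

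Olfactory ensheathing glia, which wrap the axons that enter the bulb from the nose, had the highest level of Npy (neuropeptide Y, chromosome 6, 49822710 to 49829507, plus strand). It was 5625, 2392 and 2922 CPM in cluster 11. The nearest was inhibitory cluster 3, at 753, 260 and 247 CPM, again with mouse 1 highest and without overlap. The log2 fold change was 6.44 in cluster 11 (SE 0.224, adjusted p = 1.78e-32) and 3.40 in cluster 3 (SE 0.272, adjusted p = 2.96e-15). In cluster 11, 94.8% of nuclei had an Npy UMI, against 19.9% of microglia, with medians of 5021.5 and 3405 UMIs; after thinning the shares were 85.3% and 10.96%. Agt, angiotensinogen, a secreted precursor best known from astrocytes, also peaked in cluster 11 (359, 173 and 191 CPM, log2 fold change 7.60, SE 0.184). Astrocytes, cluster 9, had 21.0, 12.5 and 16.6 CPM, below all mice of cluster 11 and above the mean of any other cluster (log2 fold change 3.51, adjusted p = 1.41e-14).

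Cholecystokinin (Cck, chromosome 9, 121489824 to 121495694, minus strand) had 927, 505 and 527 CPM in projection cluster 4 and 757, 520 and 666 CPM in cluster 2. Those clusters overlapped and were the only ones called (log2 fold changes of 2.20 and 2.32, SE 0.164 and 0.161). Next among the fitted clusters stood microglia, with 357, 263 and 319 CPM, above the remaining projection clusters in the mean. A Cck UMI was found in 96.6% of nuclei of cluster 4 and in 54.8% of microglia (46.4 to 63.0%). The level in cluster 4 was 2.09 times that in microglia, which should lack the gene. Levels of Cck in the other fitted non-projection clusters, from 72.0 CPM in cluster 3, lay below that of microglia. Whether they reflect expression there was not tested. Microglia had the lowest median depth of the fitted clusters (3405 UMIs), so their CPM is an uncertain yardstick for deeper clusters.

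Nmb, neuromedin B, had 238, 96.6 and 93.8 CPM in cluster 4 (log2 fold change 2.82, SE 0.145, adjusted p = 6.43e-24) and was called in 3 other projection clusters, 2, 5 and 13, with means from 48.3 to 60.4 CPM beside 39.1 ± 8.34 CPM in microglia. Nmb overlaps Sec11a on the same strand, which makes its counts less certain. Adcyap1, the PACAP precursor, was called in all 5 projection clusters and in no other. It was highest in cluster 14 at 50.9, 20.5 and 34.6 CPM (log2 fold change 3.63, SE 0.287, adjusted p = 6.64e-16), and its lowest projection mean was 9.97 ± 6.23 CPM in cluster 13. The mice of clusters 14, 2 and 4 overlapped.

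When all projection nuclei were summed per mouse and compared with all inhibitory and dopaminergic nuclei, 7 of 31 members were higher (15.4% of genes were) and 13 were lower (13.7%). Cck was 569, 410 and 390 CPM in projection neurons and 90.8, 122 and 83.2 CPM in inhibitory ones. The groups were apart in every mouse (log2 fold change 2.28, SE 0.20, adjusted p = 4.27e-05). Adcyap1 had the largest difference in this direction, with 18.5, 13.5 and 20.2 CPM against 1.48, 1.69 and 2.20 CPM (3.35, SE 0.216, adjusted p = 9.14e-06). Nmb followed at 73.7 ± 24.0 against 13.98 ± 2.28 CPM (log2 fold change 2.46). Chga, a granin, was higher too, at 109 ± 10.3 against 40.3 ± 1.72 CPM (1.51, SE 0.089). The remaining genes of this direction were scarce: Nts (3.61 against 1.43 CPM), Pdyn, the dynorphin precursor (0.919 against 0.266 CPM), and Nmu, neuromedin U (0.681 against 0.233 CPM). The call of Nts ended without mouse 2 (adjusted p = 0.0875) and that of Nmu without mouse 1 (0.198), without mouse 2 (0.147) or with the mouse as a block (0.0536). Pdyn and Nmu passed the filter on low counts in this fit alone. A scarce gene can pass it through the group where it is high, so these calls, counted among the 7, are no separate support.

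The peptides lower in projection neurons had log2 fold changes from -1.12 to -3.67. Penk was 6.02, 18.8 and 5.02 CPM in projection and 166, 147 and 98.9 CPM in inhibitory neurons (log2 fold change -3.67, SE 0.50, adjusted p = 4.59e-04), with no overlap. Vip had 3.57 ± 2.04 against 46.8 ± 25.1 CPM (-3.59), Trh 7.66 ± 5.10 against 89.9 ± 28.1 CPM (-3.44), and Npy 14.4 ± 6.59 against 96.2 ± 55.9 CPM (-2.65). Pnoc, Tac1, Tac2, Pthlh, Sst, Cort, Cartpt, Nppa and Vgf were also lower. The calls of Sst (adjusted p = 0.104), Cartpt (0.0574) and Nppa (log2 fold change -0.95) ended without mouse 1, and that of Cartpt also without mouse 2 (0.0518). Pomc, Crh, Calca, Agt, Nppc, Prok2, Gal, Chgb, Scg2, Scg3 and Scg5 were not called.

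Much of several of these inhibitory totals came from 1 cluster. Cluster 15, with 301 nuclei, gave 75.2% of all inhibitory Vip UMIs, 57.8% of Crh, 55.8% of Pnoc, 54.9% of Tac2 and 51.8% of Sst. Cluster 6 gave 74.6% of Trh and 65.2% of Gal, cluster 1 gave 70.3% of Tac1, cluster 10 gave 65.4% of Cartpt, and cluster 7 gave 61.5% of Nppa. Penk was less concentrated, with 46.0% from cluster 0.

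**Figure D3:**
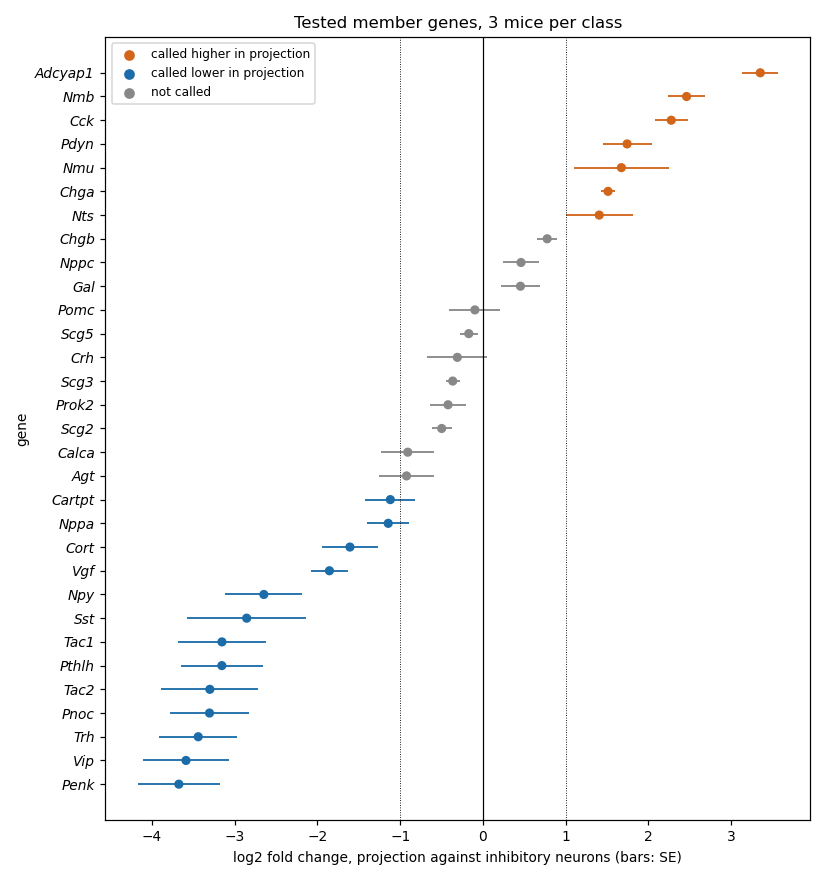
Log2 fold change (projection minus inhibitory neurons, summed per mouse, n = 3 mice) of the 31 tested members, with bars of 1 standard error and colour for the call. Adcyap1, at 3.35, lies at one end and Penk, at -3.67, at the other, and 11 members were not called.

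Within the nuclei that the authors subclustered as projection neurons, 23 of 25 members differed between subclusters (66.6% of 13715 genes did), all but Sst (adjusted p = 0.508) and Trh (0.344). This fit includes subcluster 2, which carried Gad1, Slc32a1 and Meis2. It therefore enters the test of any difference, the counts of pairs and the mean of the other subclusters in each comparison. Of 225 pairs of member and subcluster, 30 were called higher (5.8% of all pairs of gene and subcluster). At least 1 subcluster was called for 20 of the 25 (31.8% of genes). Subclusters 2 and 8 had 5 (5.08%) and 2 (4.23%) members called, and the count of subcluster 2 ran from 2 to 8 under the alternative settings. In 10 of the 25 the highest subcluster lay apart from all others in every mouse (16.3% of genes).

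The mitral subcluster M3 stood out by Calca and Nts. Calca reached 69.0, 41.5 and 30.6 CPM in M3 (log2 fold change 5.78, SE 0.364, adjusted p = 8.83e-13). Nts had 50.8, 46.8 and 20.9 CPM there (4.78, SE 0.372, adjusted p = 6.66e-11), above the 8.94, 8.51 and 6.56 CPM of M2, where it was called too (2.48). M3 also had more Chga (390, 306 and 337 CPM, log2 fold change 1.47) and Scg2 (735, 570 and 551 CPM, 1.09, or 0.99 without mouse 1). Of the 326 M3 nuclei, 13.8% had a Calca UMI and 15.3% an Nts UMI. Of 146 microglia 0% did, with an exact 95% interval up to 2.49% for a UMI being seen at their depth. The median nucleus held 5915 UMIs in M3. At 2 or more UMIs, 26 nuclei had Calca and 27 had Nts. Of those with Calca, 15.4% had Nts (4 nuclei), against 8.28% of all M3 nuclei. In all, 4 of 25 members were called in M3 (5.94% of genes), 2 in M2, Nts and Crh (5.59%), and 0 in M1 (6.88%) by edgeR or DESeq2, with 1 at an unadjusted p under 0.05 and the same fold limit. With the mouse as a block, edgeR called Tac1 in M1 (log2 fold change 1.41, adjusted p = 0.0366), at 0, 3.23 and 2.59 CPM. The M1 library of mouse 1 rested on 14 nuclei.

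Among tufted subclusters, T1 and ET2 had 4 members each called (5.37% and 6.75% of genes) and ET1 had 3 (4.35%). ET4 had 6 of 25 (8.05%), namely Nmb, Cck, Cartpt, Prok2, Chga and Vgf. Nmb had 429, 188 and 238 CPM there (log2 fold change 2.75, SE 0.164, adjusted p = 1.61e-14). Cartpt (26.3, 15.6 and 16.1 CPM, 3.16) and Prok2 (38.3, 16.8 and 20.3 CPM, 3.43) were higher in ET4 and, at 5.68 ± 0.68 and 8.44 ± 1.36 CPM, in ET1. The call of Cartpt in ET1 ended without mouse 1 (adjusted p = 0.0900) or mouse 3 (0.0543), and microglia had 10.5 ± 5.48 CPM. Gal in ET1 was just under the fold limit (0.99, adjusted p = 0.0126) and passed it under several settings, DESeq2 among them (1.02), and Chgb was called there without mouse 2. T1 had the highest galanin level of the fitted subclusters, with 53.3, 28.8 and 35.1 CPM (2.69, SE 0.209, adjusted p = 1.41e-11). Chgb at 300.1 ± 27.8 CPM and Cort at 6.78 ± 3.23 CPM were called in T1 as well, the former at a log2 fold change of 1.03 that was 0.97 without mouse 3. ET2 had Nppa at 50.9, 30.5 and 20.5 CPM (2.78, SE 0.277, adjusted p = 1.85e-09), with Pnoc, Adcyap1 and Crh. Without mouse 1 the log2 fold change of Adcyap1 in ET2 was 0.80 (adjusted p = 0.126), and without mouse 3 that of Crh was 0.80 (0.299). Both calls also ended without the 5% of nuclei with most UMIs.

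Cck was graded over the subclusters rather than present in one. It had 1125, 668 and 541 CPM in ET4, 795, 586 and 684 CPM in T1, 966, 704 and 654 CPM in M3, and 786, 469 and 530 CPM in ET1. These 4 overlapped. ET2 was lower, at 271 ± 61.3 CPM, and M1 and M2 were lowest, at 148 ± 33.5 and 121 ± 14.7 CPM, below every mouse of the other tufted subclusters and M3. The means of ET2, M1 and M2 were below that of microglia. The calls in ET4 and T1, each at a log2 fold change of 1.02, were close to the limit and fell under it without mouse 1 in ET4 (0.79) and without mouse 3 in T1 (0.96). With library-size scaling M3 passed it (1.12).

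**Figure D4:**
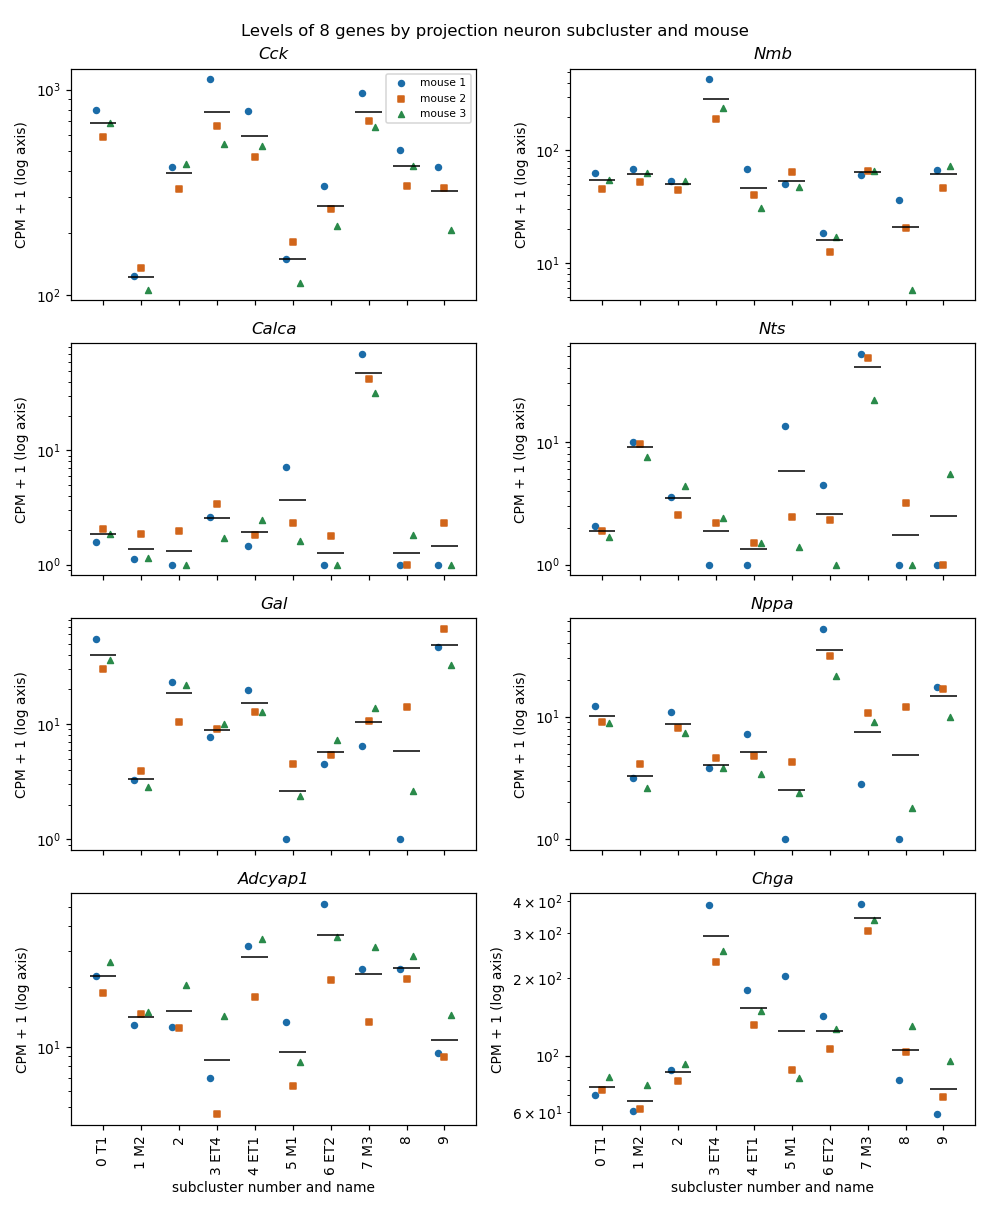
Levels of 8 members by projection-neuron subcluster, on a log axis of CPM plus 1, with 1 point per mouse and a black line at the mean of 3 mice. Calca (30.6 to 69.0 CPM) and Nts (20.9 to 50.8 CPM) peak in M3, Nmb in ET4, Nppa in ET2 and, among the fitted subclusters, Gal in T1, while Cck is high in ET4, M3, T1 and ET1.

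The mitral subclusters (M1 to M3) differed from the tufted ones (T1, ET1, ET2, ET4) in 6 members. Nts (17.4 ± 7.49 against 0.912 ± 0.25 CPM, log2 fold change 3.18, SE 0.388, adjusted p = 1.03e-07) and Calca (16.7 ± 7.56 against 0.892 ± 0.326 CPM, 1.60, SE 0.43) were higher, or 2 of 25 against 5.69% of genes. Of the mitral subclusters, M3 had the highest level of both, and Calca in M2, at 0.365 ± 0.412 CPM, was not above the tufted mean. The printed CPM means are arithmetic, and M3 (47.0 CPM of Calca) weighs most in the mitral one. The fold changes average the subclusters on the log2 scale. The call of Calca ended without mouse 2 (log2 fold change 2.11, adjusted p = 0.145). Cck (348 ± 61.1 against 583 ± 154 CPM, -1.16, SE 0.124, adjusted p = 7.86e-09), Gal (-1.59), Nppa (-1.17) and Prok2 (-1.94) were lower, or 4 of 25 against 3.57% of genes. The subclusters did not all follow these means, since Cck was higher in M3 (775 ± 167 CPM) than the tufted mean, and ET2 had 0.172 CPM of Prok2 (2 UMIs), the lowest of any subcluster. Without mouse 1 the value of Nppa was -0.87, and the call of Prok2 ended without mouse 2 (log2 fold change -2.44, adjusted p = 1) or mouse 3 (-1.62, 0.0704). Of the other subclusters, number 8 had Nppc at 17.7 ± 5.68 CPM (3.17) and Vgf, whose call ended without mouse 3 (adjusted p = 0.294), and number 2 had Penk at 50.2 ± 16.5 CPM (2.05) with Tac1, Vip, Gal and Prok2. Tac1 and Vip, at 3.96 and 17.3 CPM in subcluster 2, were below their levels in microglia (9.25 and 41.4 CPM), and Penk there was 31.4 ± 35.1 CPM. Without mouse 1 the calls of Tac1 (adjusted p = 0.0777), Vip (0.178) and Gal (0.126) ended, and without mouse 3 those of Tac1 (0.115), Gal (0.143) and Prok2 (0.104). DESeq2 called neither Tac1 (0.180) nor Vip (0.0639) there.

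Among the granins, Chga, Chgb, Scg2 and Scg5, the last a chaperone of Pcsk2, were higher in neuronal than in glial clusters, 4 of 29 members against 8.1% of genes. Chga averaged 85.1 ± 17.9 CPM over neuronal and 30.8 ± 4.49 CPM over glial clusters (log2 fold change 1.24, SE 0.142, adjusted p = 9.62e-11). Scg2 had 324 ± 51.9 against 126 ± 40.6 CPM (1.19), Chgb 143 ± 15.1 against 71.2 ± 21.1 CPM (1.10), and Scg5 334 ± 36.6 against 172 ± 47.7 CPM (1.03). Scaling by library size shifted the median of all genes by -0.20 and left Chga alone past the limit, and without mouse 1 Chgb (0.85) and Scg5 (0.89) fell under it. Vgf (0.83) and Scg3 (0.12, adjusted p = 0.208) were not called. Vgf passed the limit without mouse 2 (1.26, adjusted p = 6.44e-04) and without the 5% of nuclei with most UMIs (1.01). Lower in neurons were Tac1 (-1.62), Npy (-1.50) and Agt (-2.37), 3 of 29 against 9.4% of genes. The highest Tac1 mean of any fitted cluster was nevertheless in inhibitory cluster 1, and the glial means ran up to 10.3 ± 3.30 CPM in oligodendrocyte precursors, beside 9.25 ± 8.91 CPM in microglia. Agt was not called without mouse 2 (-0.31, adjusted p = 1).

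The highest cluster differed between the granins. Chga was highest in projection cluster 4 (274, 163 and 182 CPM, log2 fold change 2.04), overlapping inhibitory cluster 15 (214, 97.7 and 185 CPM, 1.48), where it was called too. Chgb was highest in projection cluster 2 (286, 256 and 321 CPM, 1.65), which overlapped cluster 15. Scg2 was highest in inhibitory clusters 15 (1303, 829 and 907 CPM, 2.25) and 3 (984, 540 and 604 CPM, 1.95), and Vgf in inhibitory clusters 15, 8 and 12. Vgf, a neurotrophin-induced precursor, had 400, 140 and 198 CPM in cluster 15 and 135, 84.0 and 88.4 CPM in cluster 8. In projection against inhibitory neurons, Vgf was lower (9.35 ± 1.66 against 35.7 ± 11.4 CPM, -1.85, SE 0.224, adjusted p = 2.38e-04). Scg2 (-0.50, adjusted p = 0.00836) and Chgb (0.78, adjusted p = 0.00106) differed by less than the fold limit. Scg3, a granin that binds Chga, was highest in astrocytes, at 183, 148 and 201 CPM (log2 fold change 1.15, or 0.996 without mouse 3), overlapping cluster 15 at 176, 156 and 165 CPM. Scg5 was called in no cluster, with means from 146 to 541 CPM. In cluster 7 its log2 fold change was 0.96, close to the limit, which it passed with library-size scaling (1.05), without the 5% of nuclei with most UMIs (1.04) and without mouse 2 (1.08), and in cluster 15 it passed without mouse 2 (1.11). Microglia had 161 CPM of Scg5, 136 of Scg2, 118 of Chgb, 51.9 of Scg3, 28.5 of Chga and 19.2 of Vgf, so that the highest cluster exceeded microglia 2.44 times for Chgb and 12.8 times for Vgf.

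**Figure D5:**
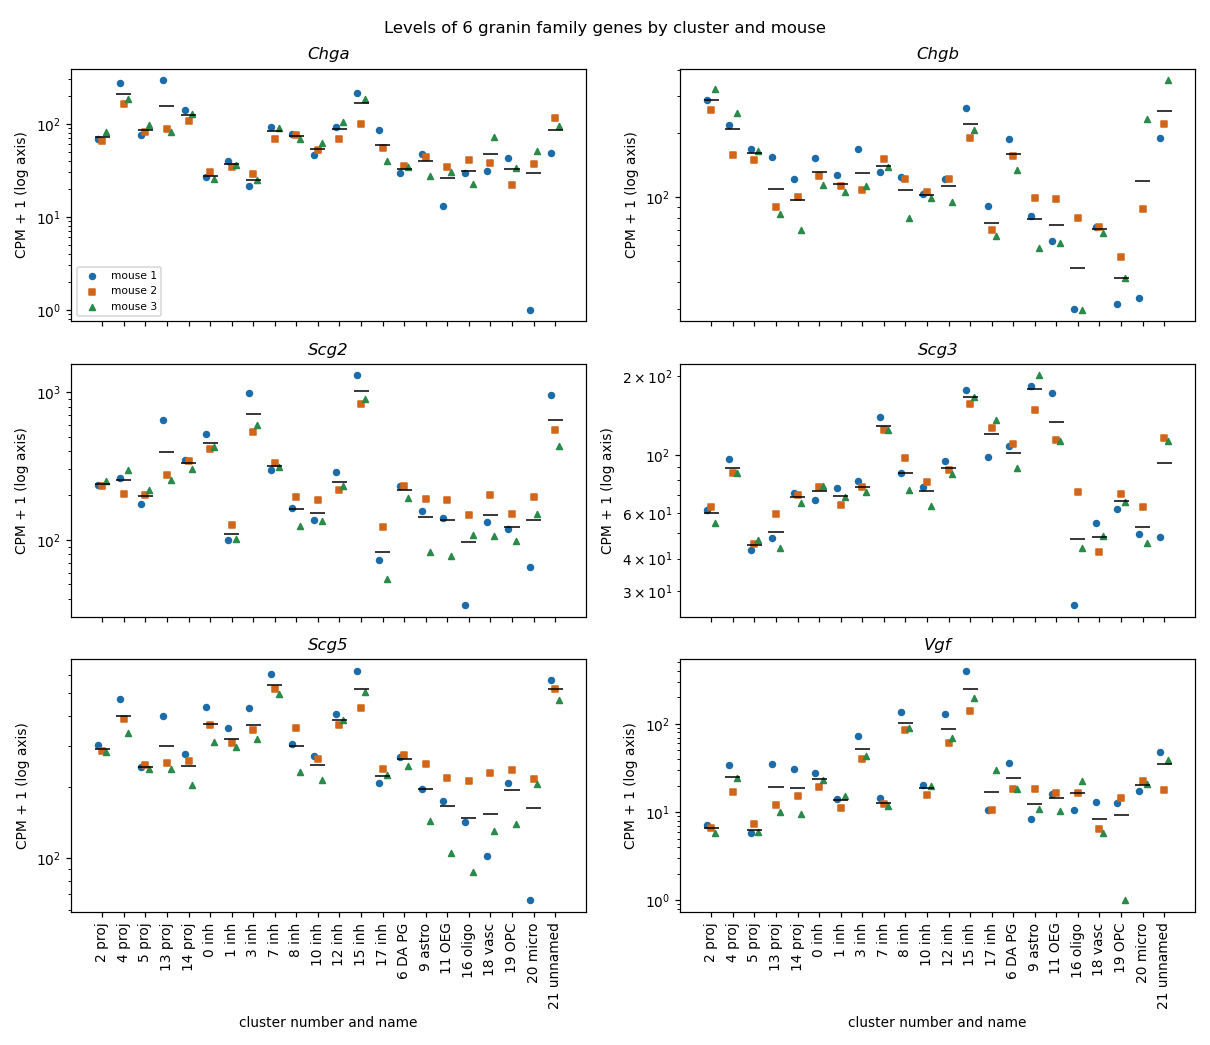
Levels of the granin-family genes by cluster, on a log axis of CPM plus 1, with 1 point per mouse and a black line at the mean of 3 mice. Chga is highest in cluster 4, Chgb in cluster 2, Scg2 and Vgf in cluster 15 and Scg3 in cluster 9, and Scg5 varies least.

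The groups too small to fit had peptide levels of their own, given without a test. In cluster 21, with 103 nuclei of low depth that carried the inhibitory markers, Penk was 285, 193 and 206 CPM and Cort 95.1, 27.1 and 56.2 CPM, from 74 and 13 UMIs, and the means were above those of every fitted cluster. Cck in that cluster was 333, 617 and 244 CPM. Subcluster 9, with 89 nuclei that carried Gad1, Gad2 and Th, had 385, 433 and 121 CPM of Trh, 45.5, 65.9 and 31.3 CPM of Gal and 120, 84.4 and 259 CPM of Npy. Of these, the Gal values overlapped with those of T1, and all mice were above the fitted subclusters' means for Trh and Npy.

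Of 36 genes for peptide processing and dense-core vesicles, 33 were tested among clusters and all 33 differed (86.0% of all genes did). In projection against inhibitory neurons, 7 of 34 were higher (15.4% of genes) and 5 lower (13.7%). Syt9 and Rab3b, which act in vesicle release, were higher in projection neurons at 215 ± 11.1 against 6.73 ± 3.74 CPM (log2 fold change 5.12) and 282 ± 37.0 against 33.2 ± 1.45 CPM (3.16). Syt7, a slow calcium sensor, had 489 ± 34.3 against 89.9 ± 4.46 CPM (2.52), and Pcsk4 and Furin were higher by 2.27 and 1.69 on the log2 scale, as were Cpd and Cpe. Syt10 (6.08 ± 3.56 against 211 ± 39.4 CPM, -5.00), Pcsk6 (-3.50) and Scgn, secretagogin (2.34 ± 1.72 against 27.4 ± 3.18 CPM, -3.39) were lower, as were Pcsk1n and Syt5. The median log2 fold change of the list was 0.01, as over all genes (0.01). Mitral subclusters had more Cadps2, a priming factor for dense-core vesicles, at 219 ± 49.8 against 10.3 ± 3.01 CPM (3.05). They also had more Rab27b (1.33) and Pcsk1 (1.01), where 5.69% of all genes were higher, and less Furin (-1.16), where 3.57% were lower. Cadps2 was among the 10 leading genes of M3 and not among those of M1 or M2. Neuronal clusters exceeded glial ones in 9 of 33 genes (8.1% of all genes). The largest differences were in Ptprn2 and Ica1, components of dense-core vesicles (log2 fold changes 1.54 and 1.53), the convertases Pcsk1 (1.49) and Pcsk2 (1.47), and Cadps (1.47), which primes the vesicles. Glial clusters exceeded neuronal ones in Ctsl and Sytl5 (9.4%). A list of 35 other peptide precursors was mostly too scarce. Among clusters 6 were tested and all differed (86.0% of all genes did). Between projection and inhibitory neurons 12 were tested, with Npb and Kng1 higher (15.4% of genes) and Apln, Adm and Nucb2 lower (13.7%).

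Of the 36 members, 7 had too few UMIs to be tested among clusters. Avp had 2 UMIs over all nuclei, Calcb 9, Grp 30, Oxt 30 and Ghrh 70, and these passed the filter on low counts in none of the 3 fits. Grp UMIs lay in 21 nuclei, 1 of them with at least 3. Nmu, with 125 UMIs, and Pdyn, with 175, passed it for projection against inhibitory neurons alone. With no filter, Nmu was called in projection cluster 14 (12.7, 3.76 and 2.82 CPM, log2 fold change 4.66, adjusted p = 4.33e-09) and in ET2 (4.70, adjusted p = 3.55e-10). With the filter, Nmu was tested and called in cluster 14 when any 1 mouse was left out (log2 fold changes from 3.92 to 5.67) and in ET2 without mouse 1 or mouse 3. Without mouse 3 it was also called in clusters 2 (2.03, adjusted p = 0.0239) and 11 (2.66, 0.0336). Over 3 mice, Nmu had 31 UMIs in cluster 14. With no filter, Pdyn was called in cluster 2 (1.63, 2.01 and 2.36 CPM, 3.93, adjusted p = 5.45e-11) and in T1 (2.94, adjusted p = 2.04e-07), the latter also with the filter without mouse 1 or mouse 3. It was called without the filter in inhibitory clusters 1 (1.81, adjusted p = 0.0296) and 7 (2.32, 0.0485) too. With the filter and without mouse 3, it was called in M3 (3.05, 0.0276). The filtered calls of Nmu and Pdyn are no separate support, since a scarce gene can pass the filter through the group where it is high. Ghrh (18 UMIs in cluster 13, adjusted p = 1.05e-05) and Grp (13 UMIs in cluster 8, adjusted p = 7.88e-06) were called on few molecules without the filter, as were Oxt, Calcb and Avp. Pomc, with 640 UMIs, Tac2, Pthlh and Agt did not pass the filter among subclusters; without it Tac2 was called in subcluster 2 and Pthlh in ET2. Exact intervals cover counting error only.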

How the data were processed

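Nuclei of 3 mice were profiled with the 10x Genomics 3' v3 chemistry. For each mouse, a deposited matrix lists UMI counts of genes by barcode, without normalization. Cell Ranger 3.0.2 produced it according to its header, on mm10 (GRCm38, per the labels); whether introns were counted is not given in the sources used here. They kept nuclei with enough genes and few mitochondrial UMIs, merged the mice in Seurat and clustered them. Their table gives, per nucleus, the cluster and subcluster, and deposited UMI counts and gene counts with a deposited percent of mitochondrial UMIs. Totals were 58526996, 213891496 and 62929479 UMIs in mice 1, 2 and 3. The authors' own tests on single nuclei were not used.

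Clusters were named where at least 3 markers of a class were carried (at least 25% of the level of the highest cluster, 50% for subclusters), the class taken being that whose list was carried most completely; a group with no listed marker among its 10 leading genes and a median depth under 0.333 of its mice's stayed unnamed. Counts were summed per mouse and cluster, for clusters with at least 10 nuclei in each mouse, filtered with filterByExpr, scaled by TMM and tested with edgeR 4.0.16 in R 4.3.3 without covariates. The standard error is the size of the log2 fold change divided by the square root of F. Fold changes of neurons against glia, and of mitral against tufted subclusters, compare averages over groups on the log2 scale. The CPM means printed beside them are arithmetic means over the same groups, so their ratio need not match the fold change. Subclusters 2 and 9, which carried periglomerular markers, were left out of the projection group. No doublet caller was run, since only the sort's scatter gate is known. Intervals of shares are exact (Clopper-Pearson, 95%), and thinning drew 1500 UMIs per nucleus, below the smallest nucleus (1571). Positions came from GENCODE M21 and promoters from RefSeq. On simulated counts with 4-fold changes, 99.0% were recovered for projection against inhibitory neurons (18141 genes), 100% for subcluster 0 (13118 genes) and 97.9% for cluster 0 (15549 genes). Alternatives were DESeq2 1.42.0, library-size scaling, no filter, the mouse as a block (libraries of a mouse come from the same animal, which pairs them), at least 1500 genes per nucleus, removal of the 5% of nuclei with most UMIs in each mouse and cluster, and leaving out each mouse. The 5% was taken within clusters for the subclusters too. M3 kept all its nuclei (69, 174 and 83 in mice 1, 2 and 3), so this setting does not test M3's own nuclei. The members and lists were chosen with earlier results of these data known. All 36 members are named whatever their values, and from the related lists the 5 called genes of largest absolute log2 fold change per contrast; the other called genes were added after their values were seen.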

Additional observations from a re-analysis of the deposited data

How the results depend on the processing

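Across the alternatives, the number of members that differed between clusters ran from 27 to 32 (28 as reported) and between subclusters from 19 to 28 (23). Pairs called higher numbered 74 to 91 among clusters (79) and 25 to 41 among subclusters (30). With the mouse as a block, these pairs were 84 and 31, the tests of any difference gave 28 and 24, and the members higher in projection neurons were 6 in place of 7. The block raised the members called in astrocytes from 2 to 4 (Sst and Vip) and in M1 from 0 to 1 (Tac1), and moved no other count of a cluster or subcluster by more than 1.5 times. It also added Pomc in cluster 10, Calca in cluster 5, Sst in cluster 7 and Trh in subcluster 8, ended the call of Nmu and took Cck in ET4 below the fold limit (log2 fold change 0.98). With library-size scaling T1 had 2 members in place of 4, Cck (0.93) and Chgb (0.94) falling under the limit. Of the single calls, 61 of 79 among clusters, 18 of 30 among subclusters, 15 of 20 between projection and inhibitory neurons, 3 of 7 between neurons and glia and 3 of 6 between mitral and tufted subclusters were kept in all settings. Members higher in neurons than in glia were 4, but 1 with library-size scaling, and 2 to 5 when mice were left out; those higher in mitral subclusters were 2, and 1 to 3 when mice were left out. The causes were not tested. The log2 fold change of Crh, not called between projection and inhibitory neurons, reversed from -0.31 to 0.13 without mouse 1 (adjusted p = 0.824) and ranged down to -0.89 when the others were left out. With subcluster 2 in the projection group, an alternative chosen after seeing the data, 14 in place of 13 members were lower, Calca being added (-1.05, adjusted p = 0.0227). Depth limits the scarce peptides, which several UMIs in a few nuclei can move. Whether levels near or below those of microglia reflect expression was not tested.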
